A study of Mus musculus with 158 samples.

Results

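Single-hybrid sites that recur across tissues were defined as regions of DNase I hypersensitivity found in 1 of the 5 F1 hybrids and in at least 2 of its 4 tissues. The 3809502 autosomal hotspots of the 20 adult sets were merged wherever they shared 1 bp or more, which gave 714403 regions. Of these, 306825 held hotspots of a single hybrid, and 10454 of those, or 1.46% of all regions, had them in 2 or more tissues. The sites were chosen by the presence of hotspots at an FDR of 5%, so their counts, tissues, widths and hotspot scores are given as a description with no test. Tests were made only on sequence, position, embryonic stem cell data, RNA and tissues that had not been used to find a site.

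All mice were F1 offspring of C57BL/6J females, and were named after the sire's strain. The sires were SPRET/EiJ (B6xSPRET), PWK/PhJ (B6xPWK), CAST/EiJ (B6xCAST) and C3H/HeJ (B6xC3H), and the classical inbred strain that the label B6x129 names. They were untreated and were killed at 8 weeks. The B6x129 and B6xC3H animals were purchased females and the other 3 hybrids were bred in the laboratory. Whole liver, kidney and lung, the solid tissues being usually pooled from several mice, and B cells purified from femoral marrow of females were profiled in 138 DNase-seq libraries. Hotspots had been called at an FDR of 5% on the pooled data of each hybrid and tissue, so each of the 20 conditions is 1 set and the spread among mice is not in the files. Every sample carries a C57BL/6J genome, and hotspots do not separate the parental alleles.

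DNase I cuts DNA where nucleosomes are displaced, so hypersensitive sites mark promoters, enhancers and sites bound by factors such as the insulator protein CTCF. Most enhancers are open in few tissues, whereas promoters and many CTCF sites are open in nearly all. The wild-derived CAST/EiJ and PWK/PhJ represent other subspecies of Mus musculus and SPRET/EiJ is another species, Mus spretus. Mouse genomes also differ in their interspersed and tandem repeats and in clustered gene families that expand and contract by duplication.

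Each label was checked at the start sites of marker genes. A hotspot lay within 500 bp of the start of Alb, Apoa1 and Ttr in 5 of 5 liver sets, of Umod and Slc12a1 in 5 of 5 kidney sets, of Sftpc, Scgb1a1 and Ager in 5 of 5 lung sets and of Cd79a and Cd79b in 5 of 5 B cell sets. Slc34a1 had one in 4 of 5 kidney sets. Some of these genes also had hotspots at their start in other tissues. Alb, the serum albumin gene, had a hotspot in 5 of 5 kidney and 5 of 5 lung sets, and the B cell genes Cd79a and Cd79b each had one in 4 of 5 lung sets. Umod had one in 4 of 5 liver sets and Ttr in 4 of 5 kidney sets. Ager had one in 3 of 5 liver, 2 of 5 kidney and 1 of 5 B cell sets, and Scgb1a1 in 2 of 5 liver sets. Whether these come from cells shared between tissues or from starts open in several cell types was not tested. The part of shared cells in the recurrence between tissues was not tested either. Fewer cells of a type cannot be told apart from less open chromatin per cell. The sets held 76055 to 286482 autosomal hotspots, fewest in B6xC3H B cells and most in B6x129 liver.

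Sequences are shown for 8 of the leading sites, since tandem and dispersed repeats are frequent among them. They were read from the C57BL/6J reference (GRCm38.p6, mm10, plus strand), and each is the site itself or its central 300 bp. The first pair are the leading B6xSPRET sites, named by hybrid and rank, and the capitals mark a run of 53 bases that is identical in both, on opposite strands.
B6xSPRET-1, chr4:114072996-114073295: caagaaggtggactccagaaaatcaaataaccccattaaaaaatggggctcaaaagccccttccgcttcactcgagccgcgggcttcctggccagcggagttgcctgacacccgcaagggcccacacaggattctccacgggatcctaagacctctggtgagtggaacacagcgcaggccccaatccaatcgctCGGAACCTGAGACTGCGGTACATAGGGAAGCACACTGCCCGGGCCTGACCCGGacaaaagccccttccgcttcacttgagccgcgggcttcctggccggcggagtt
B6xSPRET-2, chr1:139649956-139650255: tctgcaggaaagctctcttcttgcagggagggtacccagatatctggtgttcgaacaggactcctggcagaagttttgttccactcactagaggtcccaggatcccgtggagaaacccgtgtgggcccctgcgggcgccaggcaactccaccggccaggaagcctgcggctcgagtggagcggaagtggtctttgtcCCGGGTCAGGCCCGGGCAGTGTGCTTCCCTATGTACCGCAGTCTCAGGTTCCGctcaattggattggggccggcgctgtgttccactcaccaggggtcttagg
The next 3 are built of tandem copies, and the capitals mark the first 48, 19 and 96 bases. These are the shifts, among the limited range searched, at which each sequence best matches itself. A shift can span several copies, so a marked stretch is not always a single repeat unit.
B6xCAST-3, chr13:42140023-42140322: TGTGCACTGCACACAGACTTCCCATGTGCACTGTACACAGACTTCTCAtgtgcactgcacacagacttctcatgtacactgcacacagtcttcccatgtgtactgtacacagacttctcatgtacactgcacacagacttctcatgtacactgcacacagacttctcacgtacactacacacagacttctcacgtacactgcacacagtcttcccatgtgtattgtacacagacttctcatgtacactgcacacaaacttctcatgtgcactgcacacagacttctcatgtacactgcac
B6xPWK-2, chr15:9085305-9085604: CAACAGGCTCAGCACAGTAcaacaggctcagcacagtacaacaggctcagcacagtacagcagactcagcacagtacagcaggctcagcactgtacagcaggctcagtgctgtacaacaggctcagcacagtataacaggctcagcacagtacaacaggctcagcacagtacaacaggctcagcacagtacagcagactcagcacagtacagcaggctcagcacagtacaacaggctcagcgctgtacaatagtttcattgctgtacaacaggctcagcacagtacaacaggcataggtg
B6xPWK-4, chr2:170584746-170585045: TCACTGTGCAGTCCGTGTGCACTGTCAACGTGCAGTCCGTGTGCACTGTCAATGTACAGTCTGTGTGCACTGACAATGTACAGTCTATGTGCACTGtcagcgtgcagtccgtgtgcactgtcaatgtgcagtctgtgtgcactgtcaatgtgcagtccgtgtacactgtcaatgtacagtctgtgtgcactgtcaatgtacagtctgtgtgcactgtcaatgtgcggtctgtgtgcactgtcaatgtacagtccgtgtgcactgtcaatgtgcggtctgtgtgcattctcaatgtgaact
The last 3 show a simple pyrimidine-rich repeat and, for contrast, a pair of sites with no soft-masked base. Capitals mark a match to GGGCGGG, a word of the SP/KLF factors, which 3.17% of the central 300 bp windows of all regions hold on either strand.
B6xC3H-2, chr10:41504840-41505068: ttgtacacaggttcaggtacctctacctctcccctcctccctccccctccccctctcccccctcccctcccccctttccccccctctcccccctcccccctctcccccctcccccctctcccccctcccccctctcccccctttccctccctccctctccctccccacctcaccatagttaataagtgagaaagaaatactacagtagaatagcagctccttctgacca
B6xCAST-1, chr16:4495873-4496172: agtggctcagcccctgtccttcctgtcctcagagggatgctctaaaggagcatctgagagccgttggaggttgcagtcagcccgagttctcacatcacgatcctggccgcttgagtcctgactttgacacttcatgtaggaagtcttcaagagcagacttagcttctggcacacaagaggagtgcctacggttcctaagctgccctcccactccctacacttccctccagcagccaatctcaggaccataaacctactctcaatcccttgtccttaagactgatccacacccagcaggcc
B6xCAST-5, chr1:136061497-136061796: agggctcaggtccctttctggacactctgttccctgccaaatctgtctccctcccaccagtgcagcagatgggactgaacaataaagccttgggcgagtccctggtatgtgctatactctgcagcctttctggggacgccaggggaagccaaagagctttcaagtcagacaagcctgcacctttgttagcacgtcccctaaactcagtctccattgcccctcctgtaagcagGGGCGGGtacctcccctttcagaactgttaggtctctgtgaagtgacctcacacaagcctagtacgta

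B6xSPRET-1 lies between genes, 73642 bp from the start of Skint5, one of a family of genes expressed in thymus and skin. B6xSPRET-2 lies in an intron of a Cfhr3 pseudogene in the cluster of complement factor H-related genes. Soft-masked bases made up 86.3% and 77.7% of their windows. The 32 bases at the midpoint of B6xSPRET-1 occurred 105 times in the reference chromosomes, whereas those of B6xSPRET-2 occurred once. B6xSPRET-4 near Skint9 shared 28 identical bases with B6xSPRET-1 and 27 with B6xSPRET-2.

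In the tandem sites, B6xCAST-3 in an intron of Hivep1, which encodes a zinc finger protein, matched itself at 88.1% of bases when shifted by 48. B6xPWK-2, in an intron of Nadk2, the mitochondrial NAD kinase gene, matched itself at 87.5% when shifted by 19. B6xPWK-4, in an intron of 4930470P17Rik, matched itself at 88.7% when shifted by 96. None of the 3 was soft-masked. B6xC3H-2 lies in an intron of Ppil6. B6xCAST-1 lies in an intron of Srl, a gene of the muscle sarcoplasmic reticulum, and B6xCAST-5 in an intron of Cacna1s, which encodes a calcium channel of skeletal muscle. The midpoint 32-mers of B6xCAST-1 and B6xCAST-5 occurred once.

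B6xCAST held 4131 of the recurring single-hybrid sites and B6x129 held 2823. B6xSPRET followed with 1805, B6xPWK with 1283 and B6xC3H with 412. As a share of all regions with a hotspot of the hybrid these were 0.929% in B6xCAST, 0.626% in B6x129, 0.565% in B6xSPRET, 0.328% in B6xPWK and 0.127% in B6xC3H. Recurrence was rare among single-hybrid sites, from 1.03% of them in B6xC3H to 4.81% in B6xCAST. Among sites that a hybrid shared with another hybrid, 42.5% to 48.8% were found in 2 or more of its tissues.

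The order of the hybrids was not the same at equal numbers of hotspots. B6x129 had 886852 hotspots over its 4 tissues and B6xCAST 873459, against 778858 in B6xPWK, 639969 in B6xSPRET and 630364 in B6xC3H. When each of the 20 sets was cut to its 75000 highest-scoring hotspots, B6xSPRET held 804 sites. B6xPWK then held 287, B6xCAST 269, B6x129 162 and B6xC3H 149. B6xSPRET thus moved from the third place to the first, and B6x129 from the second to the fourth. The counts also depend on which hybrids are compared, since leaving out B6x129 raised B6xCAST to 7358 and leaving out B6xCAST raised B6x129 to 6314.

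**Figure D1:**
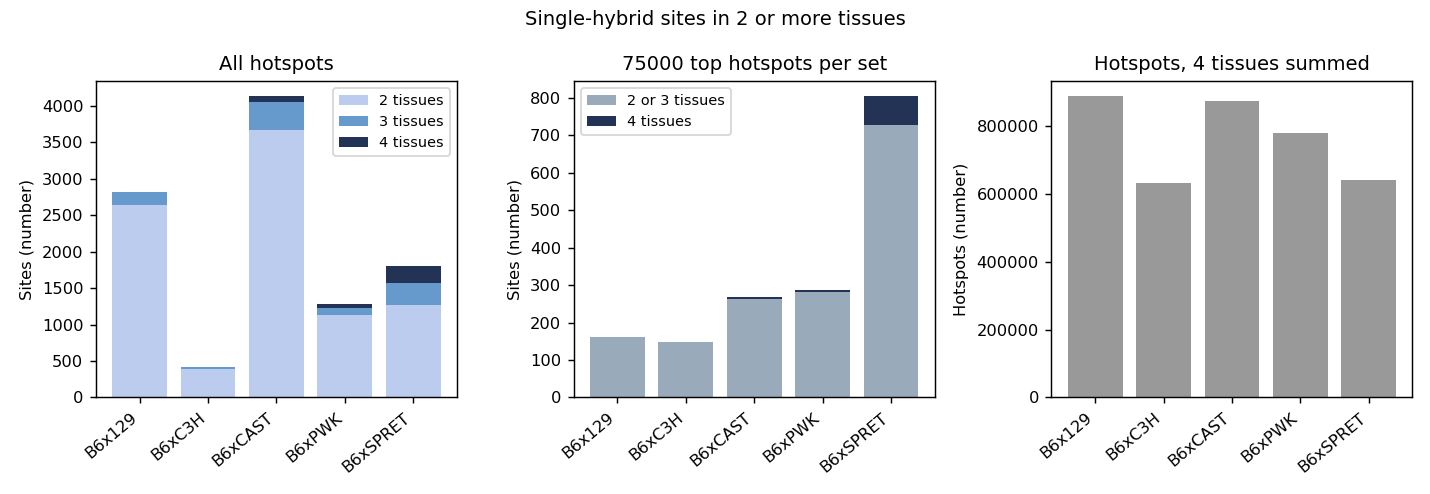
Single-hybrid sites in 2 or more tissues for the 5 hybrids. The left bars give the number of sites by tissues (412 to 4131 in all), the middle bars the number with 75000 hotspots per set (149 to 804), and the right bars the hotspots per hybrid (630364 to 886852); B6xSPRET has few hotspots yet the most sites in 4 tissues.

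The sites of the 5 hybrids also differed in how many tissues they were open in. Hotspots in all 4 tissues were found at 242 of the B6xSPRET sites (13.4%), 50 of B6xPWK (3.90%), 81 of B6xCAST (1.96%), 8 of B6x129 (0.283%) and 0 of 412 in B6xC3H. For comparison, 25.4% to 26.9% of the shared recurring sites of a hybrid were open in all 4 of its tissues. In total 9087 sites had hotspots in 2 tissues, 986 in 3 and 381 in 4. B6xSPRET held most of the sites in 4 tissues also with 75000 hotspots per set, where it had 76 against 0 to 7 in the others. Of the sites whose midpoint 32-mer was unique, 8.99% were open in 4 tissues in B6xSPRET and 0.000% to 2.61% in the others.

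The tissue pairs also differed. Liver with lung was the most frequent combination in B6x129, at 960 sites or 34.0%. Kidney with lung led in B6xCAST, at 1185 sites or 28.7%. Liver with kidney led in B6xPWK (422 sites, 32.9%), in B6xSPRET (563, 31.2%) and in B6xC3H (133, 32.3%). B cells, whose sets held the fewest hotspots, took part in 18.2% of B6x129 sites and 40.1% of B6xPWK sites, the lowest and the highest shares. In each hybrid but one the leading pair joined the 2 tissues with most hotspots of that hybrid, the exception being B6xCAST, whose liver set was slightly larger than its kidney set.

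Most of the sites were short and weak. Their median width was 193 to 231 bp by hybrid, against 99 to 120 bp for single-hybrid sites of 1 tissue and 556 to 686 bp for shared recurring sites. The median of the best −log10 FDR, the hotspot score with a ceiling of 100, was highest in B6xSPRET at 5.38. It was 3.36 in B6xPWK, 3.03 in B6xCAST, 2.83 in B6xC3H and 2.78 in B6x129. Over all hybrids it was 2.98 at sites in 2 tissues, 4.94 in 3 and 12.8 in 4. In single-hybrid sites of 1 tissue it was 1.87 to 1.99. At the edge of the rule, the weakest best score among sites in 2 tissues was 1.40. A merged width spans all hotspots joined, and a best score is the highest over the sets. Both can therefore rise with the number of sets that have a hotspot, and the comparisons above include this.

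Just outside the rule stood regions with hotspots in 2 or more tissues of 1 hybrid and a single hotspot of 1 other hybrid. There were 4477 of them for B6x129, 4113 for B6xCAST, 1609 for B6xPWK, 803 for B6xSPRET and 432 for B6xC3H, and the lone hotspot had a median −log10 FDR of 2.37 to 2.67. For B6xSPRET these were fewer than the 1805 sites inside the rule, and for B6x129 they were more than its 2823. A hotspot of another hybrid lay within 500 bp of 27.7% of the B6xSPRET sites and 37.1% of the B6x129 sites, the lowest and highest shares, and the median distance to one was 866 to 1196 bp.

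The leading sites of each hybrid, ranked by number of tissues and then by their weakest tissue, ranged over the whole scale of scores. B6xCAST-1 in Srl had the ceiling of 100 in all 4 tissues, and the nearest hotspot of another hybrid was 1387 bp away. B6xPWK-1 (chr10:117769425-117769657), in an intron of Nup107, a gene of the nuclear pore, also had 100 in all 4 tissues. Its midpoint 32-mer occurred 6 times. B6xSPRET-1 had 100 in liver, kidney and lung and 92.3 in B cells. B6xSPRET-2 had 89.3 in liver and 100 in the other 3 tissues. All of these sites were near the top of the scale in every tissue.

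In B6x129 and B6xC3H the leading sites were weaker. B6x129-1 (chr1:166940064-166940312), between genes and 61229 bp from the start of Fam78b, had its highest −log10 FDR in lung, at 11.1, with 6.35 in kidney, 5.67 in liver and 3.00 in B cells. B6xC3H-1 (chr8:15117173-15117423), in an intron of Myom2, a gene of the muscle M band, had 8.72 in liver, 38.7 in lung and 46.8 in B cells and no hotspot in kidney. B6x129-2 (chr7:100674438-100675651), which overlaps the lincRNA Gm35082 in part, had 29.4 in liver and 20.5 in B cells, with only 4.80 in lung and 2.83 in kidney.

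**Figure D2:**
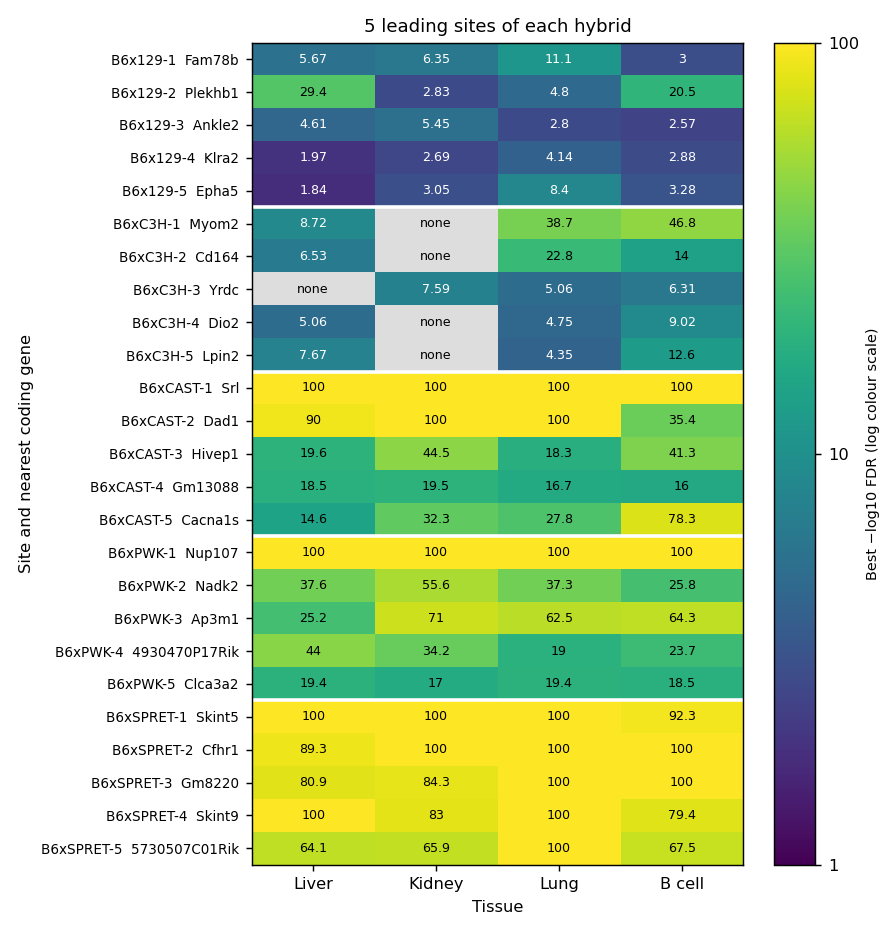
Best −log10 FDR (colour on a log scale, number in each cell, ceiling of 100) of the 5 leading sites of each hybrid (rows, with the nearest protein-coding gene) in the 4 tissues (columns); gray cells have no hotspot. The B6xCAST, B6xPWK and B6xSPRET rows range from 14.6 to the ceiling in all tissues, while the B6x129 rows range from 1.84 to 29.4.

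Whether single-hybrid openness carries over between tissues was examined with a lookup that did not use the second tissue to find the sites. Regions were merged within 1 tissue alone, those of a single hybrid were kept, and each was looked up in another tissue of the same hybrid and of the 4 other hybrids. A hotspot was found in the same hybrid at 18.4% of sites in B6x129, 17.4% in B6xCAST, 12.6% in B6xSPRET, 12.3% in B6xPWK and 6.05% in B6xC3H. In the other hybrids the means were 12.8%, 11.3%, 8.60%, 9.77% and 7.06%. The difference averaged 3.45 ± 2.85 percentage points (SD, n = 5 hybrids) and was positive in 4 of 5 (exact sign-flip permutation test, two-sided, p = 0.125). Same-hybrid shares were above the mean of the others in 51 of the 60 pairs of tissues, and above the highest of the others in 25. Sites of several hybrids, looked up in the same way, differed by 6.71 points in B6x129 and 5.19 in B6xCAST, beside 5.61 and 6.08 for their single-hybrid sites. The excess of single-hybrid over shared sites was 2.93 ± 3.87 points (SD, n = 5, exact p = 0.1875) and was -1.09 in B6x129.

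With 75000 hotspots per set the difference was 2.98 ± 1.05 points (SD, n = 5) and positive in 5 of 5 hybrids, from 1.43 in B6xC3H to 4.19 in B6xSPRET (exact p = 0.0625, the smallest that 5 hybrids allow). At this setting the lookup for sites of several hybrids gave 0.29 ± 1.82 points (SD, n = 5, exact p = 0.688). Most single-hybrid sites thus had no hotspot in the second tissue of their own hybrid. The share with a hotspot there in any of the other hybrids was not counted.

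**Figure D3:**
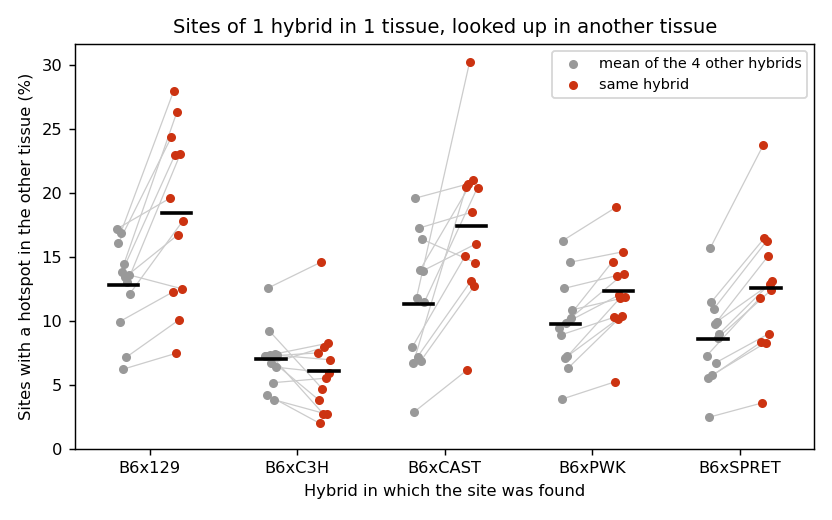
Share of sites (percent) with a hotspot in a second tissue, for sites found in 1 hybrid in a first tissue; each hybrid has 12 ordered tissue pairs, with gray points for the mean of the 4 other hybrids, red points for the same hybrid and black bars for means. The red mean is higher in 4 of the 5 hybrids, and B6xC3H is the exception (6.05% against 7.06%).

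Repeated DNA was more frequent at the recurring sites than at either set they were compared with. The share of sites whose 32 midpoint bases occur more than once in the reference was 23.6% in B6xSPRET, 13.3% in B6xPWK, 12.9% in B6xC3H, 12.1% in B6xCAST and 11.1% in B6x129, against 4.66% of all regions. In single-hybrid sites of 1 tissue it was 4.82% to 6.51% and in shared recurring sites 2.40% to 2.95%. The mean difference was 8.87 ± 4.85 points against the former and 11.9 ± 5.28 points against the latter (SD, n = 5), each positive in 5 of 5 hybrids (exact p = 0.0625, adjusted p = 0.119 over 42 tests). No adjusted value can pass 0.05 with 5 hybrids, so these are differences of 1 sign in all hybrids rather than calls.

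The share was higher with each further tissue wherever 20 or more sites were counted. In B6xSPRET 6.35% of the sites in 1 tissue, 16.2% in 2, 34.7% in 3 and 48.8% in 4 had a repeated midpoint. In B6xPWK the 4 values were 5.29%, 11.7%, 17.3% and 42.0%, and in B6xCAST 6.51%, 10.5%, 21.8% and 35.8%. Soft-masked bases, which the reference marks as interspersed or simple repeats, made up 38.9% of the windows in B6xC3H and 38.3% in B6xSPRET, and 26.1% to 28.9% in the other 3 hybrids, against 13.95% to 15.2% at shared recurring sites (mean difference 17.1 ± 6.78 points, SD, n = 5, exact p = 0.0625). The 1-tissue sites had 22.45% (B6xPWK) to 25.8% (B6xCAST), a mean difference of 7.70 ± 5.98 points (SD, n = 5, exact p = 0.0625). This difference ranged from 2.75 points in B6x129 to 14.7 in B6xSPRET. With 75000 hotspots per set it was -0.943 points in B6xPWK. At the B6xSPRET sites open in 4 tissues soft-masked bases reached 63.4%.

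Some of the B6xSPRET sites held the same words. A 32-mer of at least 8 different dinucleotides was shared with the window of another site of the same hybrid at 318 of 1805 B6xSPRET sites (17.6%), and at 112 of its 242 sites in 4 tissues (46.3%). The corresponding shares of all sites were 13.6% in B6xCAST, 8.18% in B6xPWK, 7.04% in B6xC3H and 5.46% in B6x129. Larger sets of sites have more chances to share a word, so these shares are not comparable by themselves. The largest connected group in B6xSPRET held 113 sites on 18 chromosomes, 50 of them open in all 4 tissues, and 88.2% of its bases were soft-masked. The largest in B6xCAST held 90 sites on 19 chromosomes, 5 of them open in all 4 tissues. The authors kept reads that mapped uniquely, and copies that a hybrid genome holds beyond those of the reference were not examined.

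Fewer of the sites than of shared recurring sites were open or bound by CTCF in embryonic stem cells, and more than of 1-tissue sites. Mouse embryonic stem cells labelled B6xCAST had been profiled by DNase-seq and by CTCF ChIP-seq, and neither set was used by the rule. Sites of the other hybrids were, however, kept only if adult B6xCAST tissues had no hotspot there, whereas shared recurring sites may have one. For those hybrids the contrasts of both stem cell sets with shared sites are therefore not independent of the rule. The 1-tissue sites were chosen with the same exclusion. A CTCF hotspot overlapped 8.93% of the sites in B6x129, 6.97% in B6xCAST, 5.34% in B6xC3H, 4.52% in B6xPWK and 3.71% in B6xSPRET. The single-hybrid sites of 1 tissue had 2.05% to 3.83% (mean difference 2.99 ± 1.34 points, SD, n = 5, higher in 5 of 5, exact p = 0.0625). With 75000 hotspots per set this difference was positive in 4 of 5 hybrids (exact p = 0.1875) and was -1.25 points in B6xSPRET. The shared recurring sites had 19.7% to 24.8% (mean difference -15.8 ± 3.92 points, SD, n = 5, lower in 5 of 5, exact p = 0.0625).

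B6xCAST sites open in all 4 tissues stood highest, with a CTCF hotspot at 21 of 81, or 25.9% (95% Wilson interval 17.6% to 36.4%), and a DNase hotspot at 13 of 81, or 16.05% (9.63% to 25.6%). Of the 242 B6xSPRET sites of that kind 8 had a CTCF hotspot, or 3.31% (1.68% to 6.39%). These intervals cover counting error only. The stem cells are B6xCAST by their label and by the study's text. A sample list of the study names another hybrid for the same libraries. Whether a hybrid shared with the B6xCAST sites bears on this contrast was not tested. A DNase hotspot of the stem cells overlapped 7.63% of all B6xCAST recurring sites and 6.16% of those of B6x129, and 2.42% to 3.32% in the other 3 hybrids. The difference was 1.73 ± 1.55 points against 1-tissue sites and -23.7 ± 5.16 points against shared recurring sites (SD, n = 5, each of 1 sign in 5 of 5 hybrids, exact p = 0.0625).

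**Figure D4:**
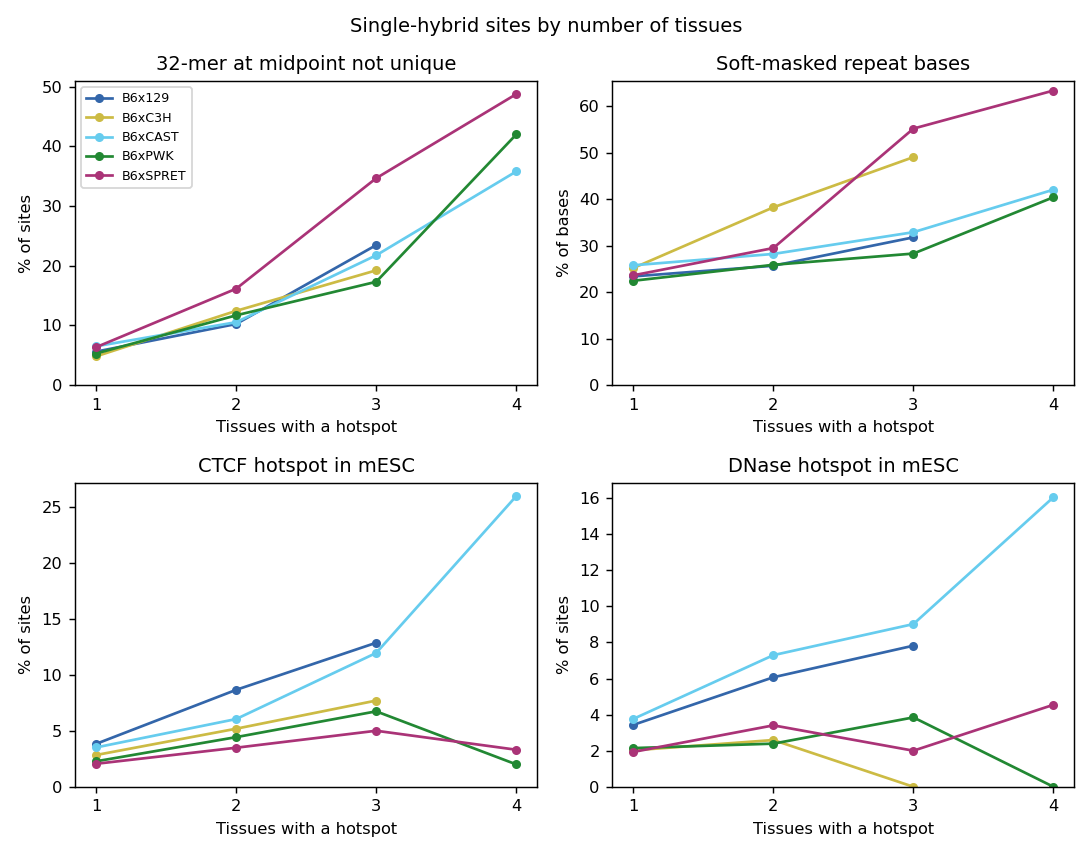
Share of single-hybrid sites (percent of sites, or of bases for soft-masked repeats) by the number of tissues with a hotspot (x axis), for each hybrid; points resting on under 20 sites are left out. Repeated midpoints reach 48.8% in B6xSPRET at 4 tissues, and CTCF hotspots of embryonic stem cells reach 25.9% in B6xCAST but 3.31% in B6xSPRET.

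Start sites were less frequent near these sites than near shared recurring sites and slightly more frequent than near 1-tissue sites. A transcription start lay within 1 kb of 3.60% of the sites in B6xSPRET to 6.54% in B6xCAST, of 3.36% to 5.85% of 1-tissue sites (mean difference 0.732 ± 0.320 points, SD, n = 5, higher in 5 of 5, exact p = 0.0625) and of 7.5% of all regions. It lay within 1 kb of 14.1% to 17.1% of the shared recurring sites (mean difference -10.1 ± 2.41 points, SD, n = 5, exact p = 0.0625). The excess over 1-tissue sites was present in only 3 of 5 hybrids at an FDR of 1% (exact p = 0.4375). With 75000 hotspots per set it was also present in 3 of 5 (exact p = 0.625). Between 45.9% (B6x129) and 55.1% (B6xC3H) lay between genes, close to the 46.7% to 54.8% of 1-tissue sites, against 35.3% to 36.0% of the shared recurring sites. Mean GC content was 42.8% in B6xPWK to 50.6% in B6xCAST and was higher than in 1-tissue sites in 4 of 5 hybrids (2.49 ± 2.03 points, SD, n = 5, exact p = 0.125). CpG density was 0.784 to 1.39 per 100 bp, against 1.77 to 1.98 at shared recurring sites.

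Words of 14 factors or factor families were searched on both strands of the 300 bp windows. The CTCF word was present in 5.46% of B6x129 sites, 4.07% of B6xCAST, 3.05% of B6xSPRET, 2.26% of B6xPWK and 1.46% of B6xC3H sites, against 3.97% of all regions and 8.23% to 9.69% of shared recurring sites. The SP/KLF word GGGCGGG was present in 1.25% (B6xPWK) to 4.89% (B6xCAST) and was more frequent than in 1-tissue sites in 5 of 5 hybrids, by 1.53 ± 1.26 points (SD, exact p = 0.0625). The AP-1 word TGANTCA, found in 11.2% of all regions, was less frequent than in 1-tissue sites in 5 of 5 hybrids. The difference was -1.85 ± 1.88 points (SD, exact p = 0.0625), and only -0.042 in B6x129. At an FDR of 1% the word was more frequent in 2 of 5 hybrids (exact p = 0.4375). With 75000 hotspots per set it was also more frequent in 2 of 5 (exact p = 0.4375). The direction of the mean turned when the whole merged region was searched (2.11 points). The word searched for CEBP was TTGCNNAA (14.9% of all regions), that for ETS factors was CCGGAAGT (0.433%) and that for FOXA was TGTTTAC (5.60%). Nuclear receptors were searched as AAGGTCA (7.94% of all regions), RUNX factors as TGTGGTT (7.70%) and NFY as CCAATCA (3.798%). The E-box was searched as CAGCTG (17.6%) and the GATA family as AGATAAG (4.52%), beside longer words of HNF1 (0.609%), NFI (0.121%) and NRF1 (0.174%). Of all these, GATA also differed from 1-tissue sites with 1 sign in 5 of 5 hybrids, with a difference of -0.708 ± 0.275 points (SD). This too turned over the whole merged region (1.03 points), and with 75000 hotspots per set GATA was more frequent in 3 of 5 hybrids.

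Some of the sites were packed into short stretches of the genome. Bins of 1 Mb with 5 or more of them held 15.5% of the B6xCAST sites, 10.7% of B6xSPRET, 6.24% of B6xPWK, 3.72% of B6x129 and 1.21% of B6xC3H. Hybrids with more sites reach 5 in a bin more readily, so these shares are not comparable by themselves. The densest was chr2:177000001-178000000 in B6xPWK with 32 sites, 2.49% of all of that hybrid. The genes nearest to them were Gm14401 (9 sites), Gm14412 (7), Gm14322 (4) and others of a cluster of predicted genes and zinc finger genes, Zfp970 and Zfp972 among them. All hotspots of the bin numbered 395 in B6xPWK and 267 in B6xCAST, against 96 in B6x129, 67 in B6xC3H and 50 in B6xSPRET. B6xCAST also had 9 sites there and the other 3 hybrids 0. B6xPWK and B6xCAST thus had more hotspots of any kind in this bin than the other 3 hybrids.

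In B6xCAST the densest bin was chr17:6000001-7000000 with 28 sites. Their nearest genes included Dynlt1a (7 sites), Dynlt1b (5), Dynlt1c (3) and Dynlt1f (2), which encode dynein light chains and stand in tandem, and Sytl3 (7). B6xSPRET had 13 sites in this bin, and B6x129, B6xC3H and B6xPWK had 2, 1 and 0. Total hotspots there differed far less, from 390 in B6xC3H to 670 in B6xCAST. In B6xSPRET, chr12:18000001-19000000 and chr13:61000001-62000000 each held 15 sites, of which 10 and 12 were open in all 4 tissues. The latter covers a cluster of placental cathepsin genes (Ctsj, Ctsq, Ctsr, Cts6, Cts8, Cts7, Ctsm and Cts3), and Zfp808, outside the bin, was nearest to 10 of its sites. B6xCAST had 9 sites in it. At chr4:113000001-114000000 a further 13 B6xSPRET sites lay, 7 of them open in all 4 tissues and 12 nearest to Skint6. The densest bins of B6x129 and B6xC3H held 6 and 5 sites.

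**Figure D5:**
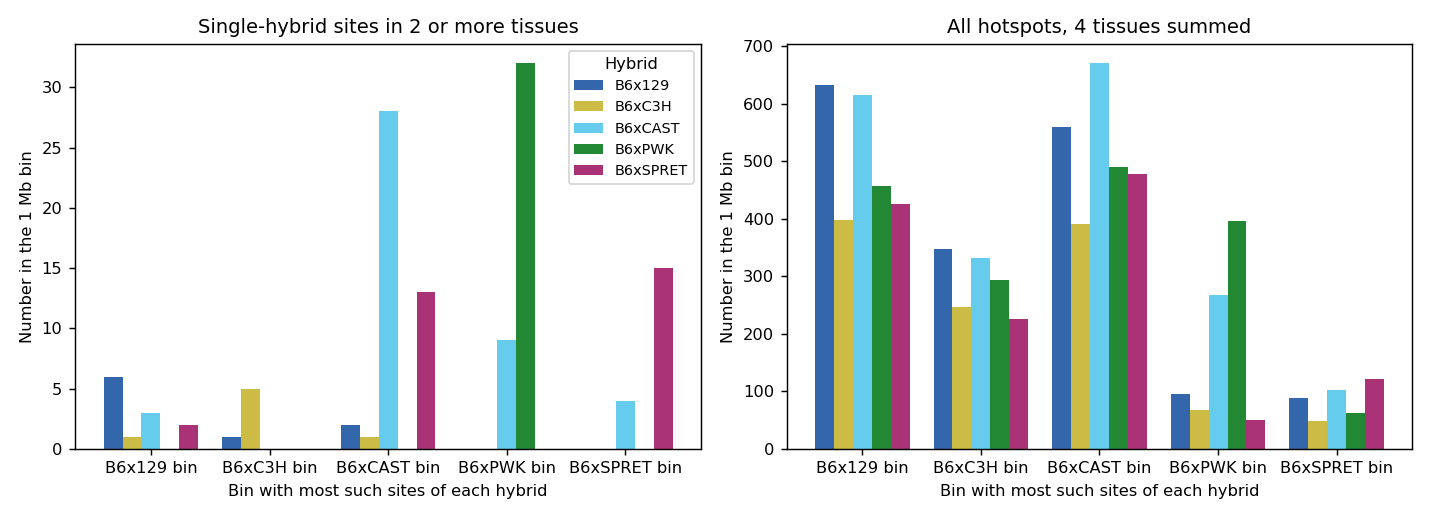
Recurring single-hybrid sites (left) and all hotspots over 4 tissues (right) of each hybrid (colours) in the 1 Mb bin with most such sites of each hybrid (x axis, numbers per bin). In the B6xPWK bin the hotspots number 395 in B6xPWK and 267 in B6xCAST but 50 to 96 in the others, while in the B6xCAST bin all hybrids have 390 or more.

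Midpoints were more often repeated in dense bins than in other bins of B6xPWK, B6xSPRET and B6xCAST. The midpoint was repeated at 56.3% of the B6xPWK sites in such bins and at 10.5% of its other sites, at 44.9% and 21.04% in B6xSPRET, at 20% and 10.6% in B6xCAST, and at 9.52% and 11.1% in B6x129. Soft-masked bases made up 38.1% and 25.9% of the windows in B6xPWK and 63.5% and 35.3% in B6xSPRET, but 25.7% in dense bins and 29.5% elsewhere in B6xCAST. B6xC3H had 5 sites in 1 such bin. Dense bins of B6xSPRET also had more sites open in all 4 tissues, 38.7% against 10.4%. Predicted genes with a Gm symbol were nearest to 9.74% of B6xPWK, 7.31% of B6xSPRET, 5.20% of B6xCAST, 4.37% of B6xC3H and 3.22% of B6x129 sites, against 3.18% of all regions and 3.70% of 1-tissue sites. Over all hybrids they were nearest to 39 of the 381 sites in 4 tissues (10.2%). Zfp genes were nearest to 20 of these (5.25%) and to 1.76% of all the recurring sites, against 1.41% of all regions. B6xSPRET held 242 of the 381 sites. Its bin at chr13:61000001-62000000 held 15 sites, 12 of them open in all 4 tissues and 10 nearest to Zfp808. Olfactory receptor genes (Olfr) were nearest to 136 of the 10454 sites and to 3853 of the 296371 1-tissue sites, which are nearly the same share, and vomeronasal receptor genes (Vmn) to 1.07%, against 0.730% of 1-tissue sites.

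Some genes that define the tissues had a recurring single-hybrid site nearest to them. At least 1 was nearest to 4 of 12 liver genes (Apob, Ttr, Cps1 and Hnf4a), 3 of 12 lung genes (Sftpa1, Hopx and Foxf1) and 4 of 12 B cell genes (Pax5, Ebf1, Blk and Vpreb1). Among kidney genes, whose list is not reported in full, Slc12a1, Kap, Cubn and Pax8 had one. Of all 20807 autosomal protein-coding genes 28.4% were nearest to one. No list was tested against this share. A B6xCAST site was nearest to each of the 4 liver genes and to Pax5, Ebf1 and Blk, which encode transcription factors and a kinase of B cells. B6xCAST held 39.5% of all the recurring sites. Apob also had a B6x129 and a B6xC3H site, Hnf4a a B6x129 site and Ebf1 a B6xSPRET site. A B6xPWK site was nearest to each of the 3 lung genes, and Hopx also had a B6xCAST site.

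RNA was compared between the 3 hybrids with RNA-seq in all tissues (B6xC3H, B6xPWK and B6xSPRET, 16 samples with 283708 to 809317 counts each), taking each hybrid against the mean of the other 2 with tissue as a covariate. Genes with a recurring single-hybrid site of the hybrid within 10 kb of their start were few among those with enough counts, 27 for B6xC3H, 44 for B6xPWK and 53 for B6xSPRET of 197, 618 and 793 annotated. None was higher in its hybrid at an adjusted p of 0.05 by edgeR's quasi-likelihood test, where 0.623%, 0.824% and 1.65% of all 4976 genes tested were. At an unadjusted p of 0.05 in either direction there were 5 of 27, 11 of 44 and 10 of 53 such genes. Of all 4976 genes tested, 629, 615 and 692 were past it. Whether these shares differ was not tested. DESeq2 also called 0 of the genes near a site higher. Lower expression passed for 0 of 27, 1 of 44 (2.27%) and 1 of 53 genes (1.89%), where 0.824%, 0.482% and 0.744% of all genes did. Median log2 fold changes of these genes were -0.08, 0.01 and 0.00, against 0.03, 0.02 and -0.05 over all genes. The counts are of both parental alleles together, and most genes near a site had too few counts to be tested.

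Both genes that passed had lower RNA in their hybrid. Gm45631, a predicted gene at chr7:7295766-7297137 with a B6xSPRET site 1184 bp from its start, had 17.98 to 43.2 CPM in the 7 B6xSPRET samples (median 36.5) and 47.7 to 104 in the 9 others (median 73.9). The groups did not overlap, and its log2 fold change was -1.17 ± 0.25 (SE, adjusted p = 0.00605, edgeR). Ctso (chr3:81932601-81956725), the gene of the lysosomal protease cathepsin O, had a B6xPWK site 8352 bp from its start. It was detected almost only in liver, with 127 CPM in the B6xPWK sample, 273 in the B6xC3H sample and 938 and 1658 in the B6xSPRET samples. Its log2 fold change was -2.30 ± 0.52 (SE, adjusted p = 0.0171, edgeR), and no B6xPWK gene passed when the B6xC3H or the B6xPWK liver sample was left out. For B6xC3H 1 gene passed without its B cell or its liver sample. For B6xSPRET 2 genes passed without the B6xC3H or B6xPWK liver, the B6xSPRET B cell or the first B6xSPRET lung sample. In each of these cases 1 was higher in B6xSPRET and 1 lower. Without the B6xC3H B cell, the B6xPWK kidney or the B6xPWK lung sample 3 passed, of which 0, 1 and 2 were higher.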

How the data were processed

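The recurring single-hybrid sites and the lists used here were chosen with earlier results of these data known. The authors trimmed reads with Trimmomatic, mapped DNase-seq reads to mm10 and strain-specific genomes with BWA, and kept reads that mapped uniquely, and called hotspots with hotspot2 at an FDR of 5% on the pooled libraries of each hybrid and tissue. The deposited score is a −log10 of the FDR per hotspot. The deposited RNA-seq tables, made by the authors with STAR and RSEM, hold expected counts, which were rounded, and TPM values, which were deposited beside the counts and not used. The number of hotspots per set stood in for depth. It does not always follow the analyzed reads that the study lists per set, so equal numbers of hotspots are not equal depth. Those read numbers were not used.

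Regions were merged, classified and annotated in Python 3.11.15 with GENCODE vM21 start sites and GRCm38.p6 sequence. Features were taken in 300 bp windows at region midpoints and compared per hybrid, with an exact sign-flip permutation test over 5 hybrids and Benjamini-Hochberg adjustment. RNA was tested with edgeR 4.0.16 (TMM, filterByExpr) and, as an alternative, DESeq2 1.42.0. The B6xCAST RNA sample, of 1 tissue only, was left out. RNA samples share only their labels, with no record of separate animals, so p-values measure the spread between these samples. Named sites were the 5 per hybrid with most tissues, ties broken by the weakest tissue's best score and then by length, named genes the nearest coding starts, and named RNA genes up to 5 per contrast past the threshold. The held-out lookup, the midpoint 32-mers and the shared 32-mers were added after the data had been seen. On simulated counts for the B6xSPRET contrast (4666 genes, 200 changed 4-fold) edgeR recovered 84.5%. Some marker genes are not reported here.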

Additional observations from a re-analysis of the deposited data

Results flagged for a closer look

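Of 54 values examined over the 5 hybrids, 6 had 1 hybrid far from the other 4. Chance flags about 1 in 20 groups, but the values share sites, and those on tissues, scores and widths come from the hotspots that chose the sites and are a description with no test. B6xSPRET stood apart in 5 of them. Of its recurring single-hybrid sites 30.0% were open in 3 or 4 tissues, against 6.31% to 12% in the other hybrids. Their median best −log10 FDR was 5.38, against 2.78 to 3.36, and their median width 231 bp, against 193 to 201 bp. The midpoint 32-mer was repeated in the reference at 23.6% of them, against 11.1% to 13.3%, and this share exceeded that of its 1-tissue sites by 17.3 points, against 5.48 to 8.05 points elsewhere. B6xPWK stood apart in the nuclear receptor word AAGGTCA, which was more frequent than in its 1-tissue sites by 0.847 points, where the other hybrids had -0.383 to -0.243 points. With 75000 hotspots per set the B6xPWK difference was -0.514 points, below that of B6xCAST at -0.393, and at an FDR of 1% B6xC3H was also positive at 0.372 points beside 0.554 in B6xPWK.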

How the results depend on the processing

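The number of recurring single-hybrid sites depended on the hotspots entered. With 75000 hotspots per set there were 804 in B6xSPRET, 287 in B6xPWK, 269 in B6xCAST, 162 in B6x129 and 149 in B6xC3H. Requiring own hotspots at an FDR of 1% left 1855 in B6xCAST, 1051 in B6x129, 672 in B6xPWK and 175 in B6xC3H. An FDR of 1% for all hotspots left 235 in B6xC3H. With no other hybrid within 500 bp, 1777 remained in B6x129 and 264 in B6xC3H. Leaving out 1 other hybrid gave 4653 to 7358 in B6xCAST, 3283 to 6314 in B6x129, 1457 to 2438 in B6xPWK and 442 to 770 in B6xC3H. Since fewer hybrids make more sites single-hybrid, these counts can only be read for this panel.

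Of 334 alternative values for 42 feature differences, 33 in 16 motif differences changed sign, and none did for the other features. These are signs of the mean over hybrids, and single hybrids could differ from it. With 75000 hotspots per set, 4 of 5 hybrids exceeded their 1-tissue sites in CpG density, soft-masked bases and CTCF hotspots, and 3 of 5 in start sites within 1 kb. Against 1-tissue sites, searching the whole merged region gave AP-1 2.11, CEBP 2.22, HNF1 0.155, FOXA 1.30, nuclear receptors 1.89, RUNX 2.41, GATA 1.03 and NFY 0.900 points. These regions are wider than those of 1-tissue sites. Against shared recurring sites it gave GATA -7.93 and NFY -6.75 points. With 75000 hotspots per set, AP-1 1.39, CEBP 0.264, RUNX 1.17 and NFY -0.845 points resulted against shared sites, and ETS -0.297, NRF1 -0.0132 and E-box -1.70 points against 1-tissue sites. At an FDR of 1%, HNF1 was 2.74e-05 and the E-box -0.387 points. Leaving out 1 hybrid gave, against 1-tissue sites, -0.114 to 0.0563 points for HNF1, -0.258 to 0.267 for FOXA, -0.295 to 0.0127 for nuclear receptors, -0.370 to 0.149 for RUNX, -0.0112 to 0.0374 for NRF1 and -0.435 to 0.801 for the E-box, and -0.0979 to 0.248 for GATA against shared sites. The cause was not tested.

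Genes with a site that passed in RNA numbered 1 in B6xC3H, 2 in B6xPWK and 4 in B6xSPRET with no filter on low counts. Of these, 3 in B6xSPRET (of 385 tested) and 1 in B6xPWK (of 320) were higher in their hybrid, and the others lower. Of all 27992 genes then tested, 210 were higher in B6xSPRET and 168 in B6xPWK. By DESeq2 2 passed in B6xPWK, both lower, and within 2 kb 0 in B6xPWK. Leaving out 1 sample gave 0 to 1, 0 to 1 and 1 to 3. No paired analysis was possible because the labels carry no replicate numbers. Hotspots came from pooled samples, so the spread among mice is not known.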
